A study of Drosophila melanogaster with 2 samples.

Results

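The core genes of the Notch pathway examined here are 10 of the 13945 protein-coding genes on the main chromosome arms of Drosophila melanogaster, chosen by name. They are the receptor gene N, the ligand gene Ser, the glycosyltransferase gene fng, the ubiquitin ligase genes neur and mib1, the protease genes kuz and Psn, and the nuclear genes Su(H), mam and H. The map is of chromatin bound by Medea, the common-mediator Smad of the fly, in whole embryos of both sexes aged 0 to 24 h from a transgenic line that carries Med with eGFP at its C terminus. Chromatin sheared to 200 to 800 bp was precipitated with an antibody against GFP and sequenced, and 2 biological replicates, numbered 2 and 3, form a single group. With 1 group there is no contrast between conditions, and peaks and genes are not replicates, so the values describe these peak lists and carry no test. Whole embryos mix all tissues, so binding in few cells and weak binding in many cells cannot be told apart. Both replicates come from 1 line that stably expresses the fusion, and no untagged embryos were analysed here.

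Notch signalling passes between touching cells. A ligand of the Delta or Serrate type on one cell pulls on Notch on its neighbour, and the receptor is then cut first by the metalloprotease Kuzbanian and next by gamma-secretase, of which Presenilin is the catalytic subunit. The freed intracellular domain enters the nucleus and joins the DNA-binding protein Su(H) and the coactivator Mastermind, while Hairless keeps Su(H) repressive when no signal comes. Fringe alters which ligand Notch responds to, and Neuralized and Mindbomb 1 ubiquitinate ligands so that they can signal. Smads such as Medea carry BMP and activin signals into the nucleus and bind the short motif GTCT or GC-rich sites.

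Of the 24 summits at these genes in the authors' reproducibility-filtered list, 9 had windows, of the summit and 50 bp on either side, that overlapped no annotated UTR and lay on arms whose sequence is shown, and the 8 with the strongest peaks are printed to show which sequence the peaks centre on. They were read from the Release 6 assembly (dm6) on the strand of the gene, and capitals mark matches, on either strand, of the Smad-type motif GTCT, of the Mad and Brk core GCCGNC, of the GC-rich site GGCGCC or of the Su(H)-type motifs GTGGGAA and GTGTGAA.
N intron, 27692 bp from the TSS, chrX:3162512-3162612, plus strand: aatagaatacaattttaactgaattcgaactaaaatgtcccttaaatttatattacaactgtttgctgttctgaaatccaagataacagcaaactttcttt
neur intron, 7452 bp from the outermost TSS, chr3R:9031969-9032069, minus strand: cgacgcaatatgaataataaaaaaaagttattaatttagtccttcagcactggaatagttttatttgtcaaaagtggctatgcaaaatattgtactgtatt
N promoter, 198 bp upstream of the TSS, chrX:3134622-3134722, plus strand: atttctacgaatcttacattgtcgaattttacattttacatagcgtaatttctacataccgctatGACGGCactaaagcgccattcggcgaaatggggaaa
kuz upstream, 1711 bp from the TSS, chr2L:13548378-13548478, plus strand: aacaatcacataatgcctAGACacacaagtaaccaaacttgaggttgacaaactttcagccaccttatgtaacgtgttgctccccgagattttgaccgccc
N intron, 22638 bp from the TSS, chrX:3157458-3157558, plus strand: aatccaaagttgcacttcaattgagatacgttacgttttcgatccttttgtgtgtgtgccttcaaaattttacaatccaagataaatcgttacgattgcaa
mib1 downstream, 6923 bp from the outermost TSS, chr3L:16004839-16004939, minus strand: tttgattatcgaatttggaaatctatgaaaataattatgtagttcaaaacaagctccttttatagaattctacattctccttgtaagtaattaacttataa
fng downstream, 26067 bp from the TSS, chr3L:20923395-20923495, minus strand: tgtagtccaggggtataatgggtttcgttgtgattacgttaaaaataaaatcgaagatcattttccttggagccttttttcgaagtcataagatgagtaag
neur second promoter, 5513 bp from the outermost TSS, chr3R:9033908-9034008, minus strand: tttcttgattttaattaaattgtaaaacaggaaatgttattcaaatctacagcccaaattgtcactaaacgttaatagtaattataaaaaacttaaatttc
Capitals appear in the kuz window, as GTCT on the other strand, and in the N promoter window, as a GCCGNC match on the other strand. The windows of the strongest intronic peaks of N and neur hold none of these motifs.

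Peaks at these genes were found mainly at promoters and inside introns. The authors deposited a list of peaks that passed a threshold on the irreproducible discovery rate (IDR) and relaxed lists, 1 for the replicates together and 1 for each. The IDR list held 5867 peaks and each relaxed list 30000. Each peak carries a signal, a value the authors gave with no stated scale, which is therefore compared within a list. The IDR list equalled the top 5867 of the relaxed list of both replicates by signal, so its peaks were not required to be strong in each replicate. In the spans of the 10 genes with 5 kb on either side, 379.5 kb in all, lay 24 IDR summits, 114 summits of the relaxed list of both replicates, 102 of replicate 2 and 115 of replicate 3. That was 6.32 IDR summits per 100 kb, against 4.38 over the 6 main arms, which also hold sequence far from genes. Per gene, the median was 1.5 IDR summits with a median window of 30.7 kb. Over all protein-coding genes the medians were 1 summit and 12.2 kb. Read depth is unknown, and the intervals given cover counting error alone.

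Promoter summits, within 1000 bp of a transcription start site (TSS) of the gene, were found at 8 of the 10 genes: N, Su(H), H, mam, kuz, neur, mib1 and Psn. Over all protein-coding genes 31.3% had one. Among as many of the strongest peaks of replicate 3 alone, the same 8 genes had a promoter summit (31.8% of all genes), and in replicate 2 alone 5 had one, N, Su(H), mam, neur and mib1 (29.7% of all genes). Intronic summits, outside all exons of the gene and farther than 1000 bp from its TSSs, were found at 3 genes, N, mam and neur, against 6.35% of all genes. The 3 were found in replicate 3 alone too (6.18% of all genes), and replicate 2 alone added Ser (6.74% of all genes). Gene length differs among these genes. Among all genes of 20 kb or more 46.9% had one, and of the 5 such genes here, N and mam did. A summit anywhere in the window was found at 9 of 10 genes, all but Ser, against 58.1% of all genes, and these windows are longer than most, with a median of 30.7 kb against 12.2 kb.

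**Figure D1:**
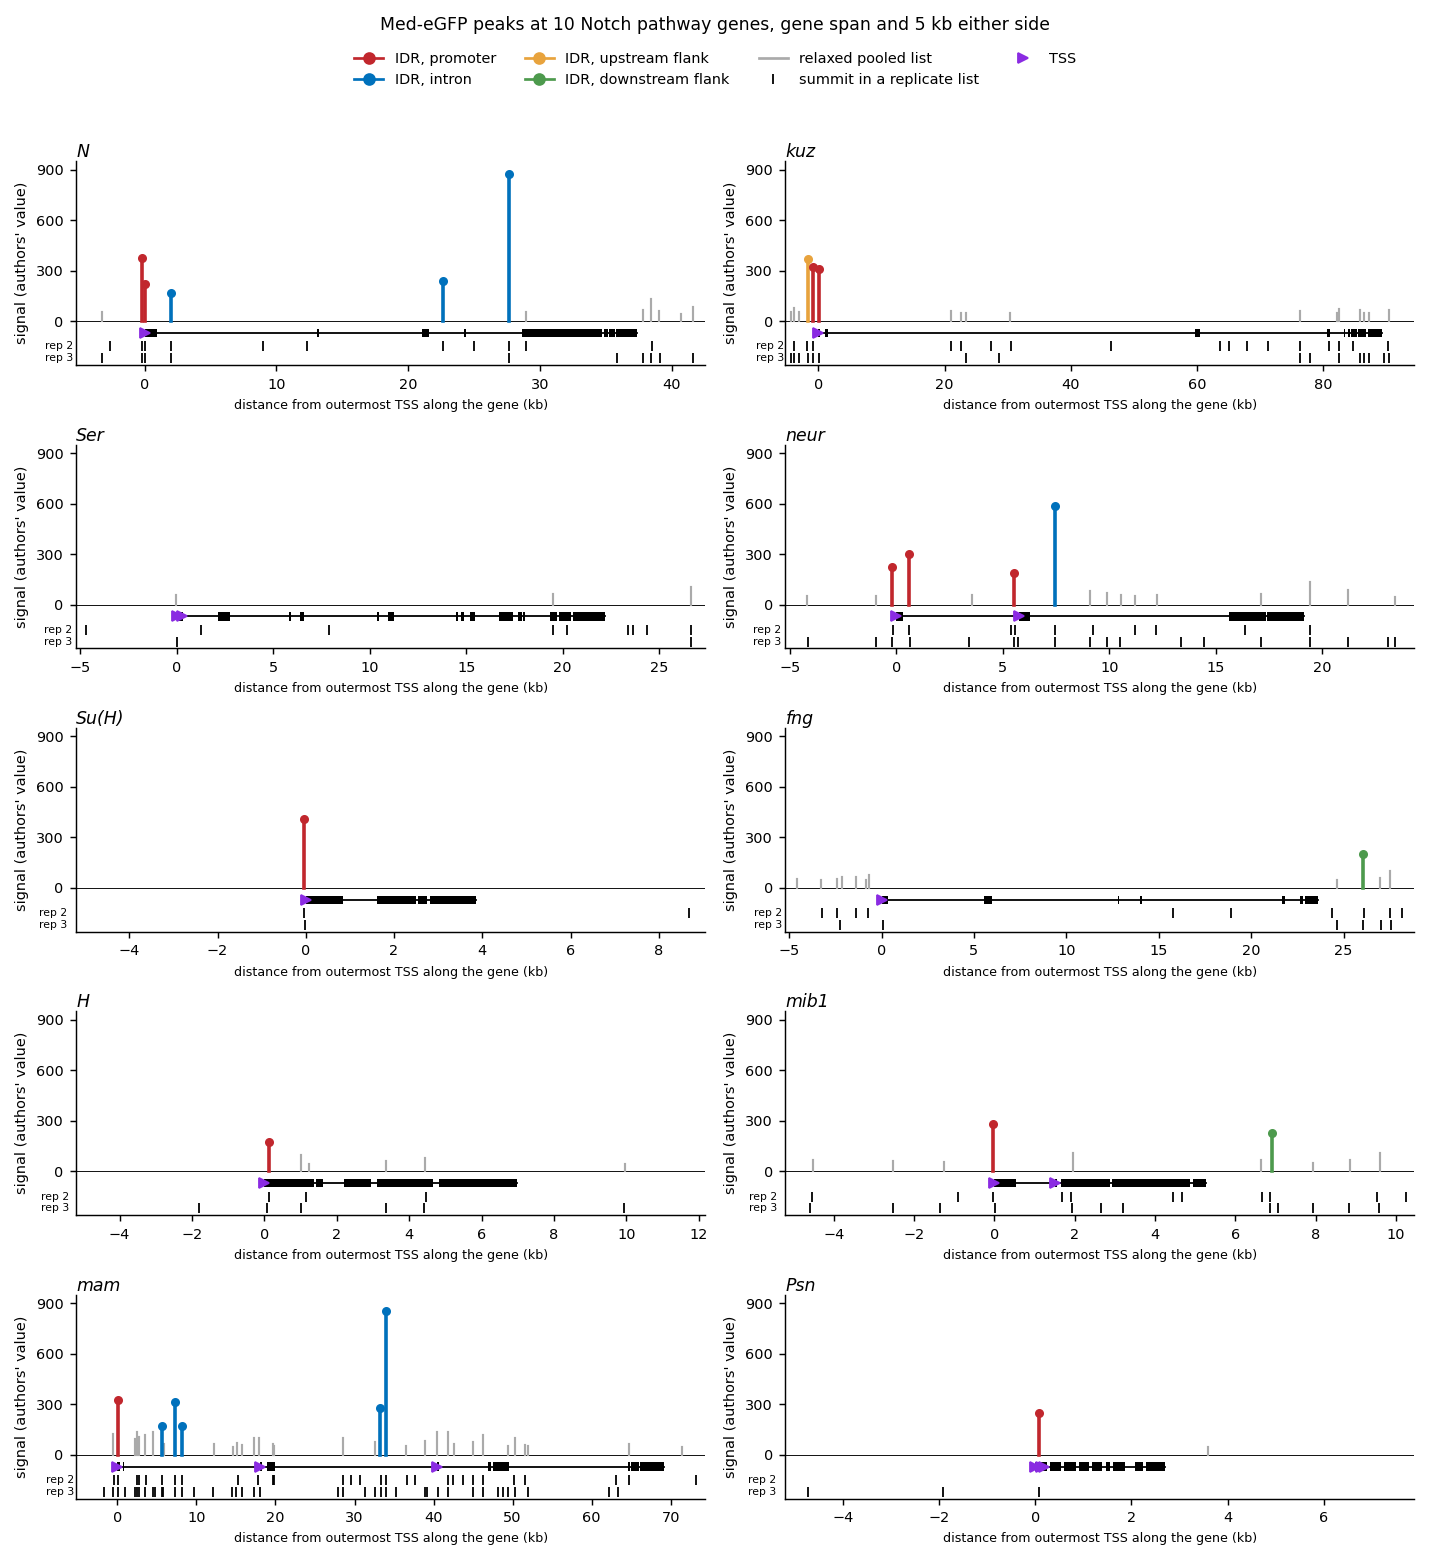
Each panel plots the signal (vertical axis, authors' value) of peaks against the distance of their summit from the outermost TSS along the gene (horizontal axis, kb). Coloured stems are IDR peaks by place, grey stems are peaks of the relaxed list of both replicates, black boxes are exons, purple arrows are TSSs and the rows of ticks are summits in the lists of replicates 2 and 3. The tallest stems are intronic, at N (871.9), mam (851.2) and neur (583.1), and Ser has no coloured stem.

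The 24 summits comprised 12 at promoters, 9 in introns, 1 in an upstream flank, 2 in downstream flanks and 0 in exons. Promoters thus held 50% and introns 37.5%, where over the whole IDR list 62.3% of summits were within 1000 bp of any protein-coding TSS and 24.4% were intronic. The member classes refer to TSSs of the member alone, and 9 of the 24 summits, 7 of them at a member promoter, also lay that close to the start of a second gene. At Su(H), mam, kuz and Psn every promoter IDR summit was shared in this way. The like share over all IDR summits is not given here, so these counts have no background beside them. Promoter signals of the members ran from 175.2 to 407.0 with a median of 289.7, against a median of 295.8 over all promoter peaks. Intronic signals ran from 168.6 to 871.9 with a median of 276.3, against 262.3 over all intronic peaks. The promoter and intronic signals of the members overlapped, and the 3 strongest peaks were all intronic. Among as many of the strongest peaks of each replicate alone, a different set of member summits, the order of the medians turned. The medians there were 92.56 for promoters and 116.8 for introns in replicate 2, and 167.9 and 175.1 in replicate 3. At the IDR summits themselves, where matched, the order turned in replicate 2, with 82.90 for promoters and 132.2 for introns. In replicate 3 it did not turn there, with 184.8 for promoters and 154.6 for introns.

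**Figure D2:**
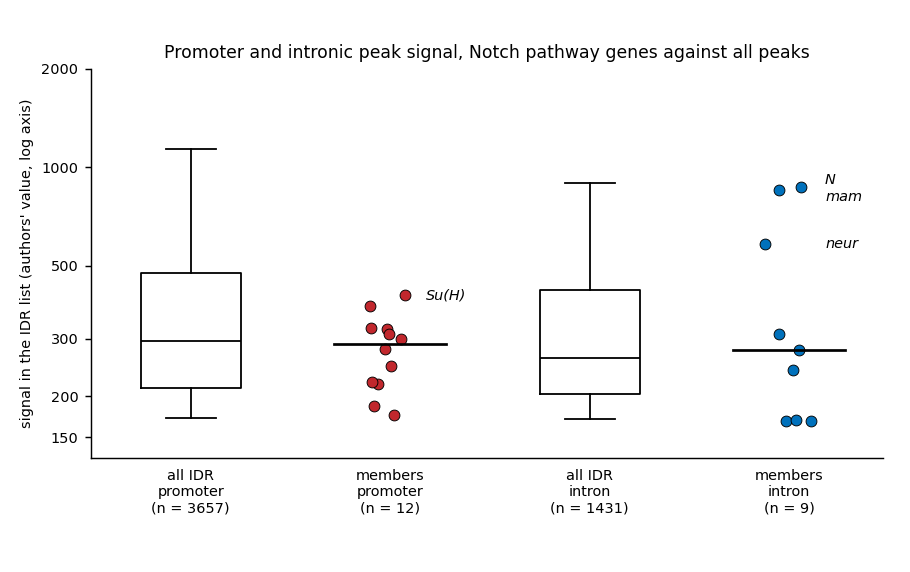
Signal in the IDR list (vertical log axis, authors' value) is shown for all promoter and all intronic peaks as boxes (quartiles, median line, whiskers at the 5th and 95th percentile) and for the peaks of the 10 genes as points with a line at the median. The member medians, 289.7 and 276.3, lie near those of all peaks, 295.8 and 262.3, and only intronic points of N, mam and neur exceed 407.0.

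At the receptor gene N (FBgn0004647, X from 3134870 to 3172221, plus strand) 5 IDR peaks were found, 2 at the single TSS and 3 in introns. The strongest, from 3162360 to 3162701 with its summit 27692 bp from the TSS in a 4245 bp intron (number 5 of 8), ranked 468 in the IDR list at 871.9, and its signal was 426.8 in replicate 2 and 444.1 in replicate 3. Both replicates ranked it near the top of their lists, at 402 and 524 of 30000. The promoter peak from 3134484 to 3134859, with its summit 198 bp upstream, had a signal of 377.5, with 177.4 in replicate 2 and 197.1 in replicate 3. A second promoter peak with its summit 5 bp from the TSS overlaps it, and had 218.7, with 58.87 in replicate 2 and 157.5 in replicate 3. The replicates were close at the upstream summit and apart at the one on the TSS.

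The weaker intronic peaks of N differed between the replicates. The summit 1973 bp from the TSS, in a first intron of 12147 bp, had a signal of 168.6, with 39.09 in replicate 2 and 120.2 in replicate 3. The summit at 22638 bp (number 4 of 8 introns, 2638 bp) had 241.4 and 101.5 in replicate 2, and no peak of replicate 3 within 100 bp or overlapping. It was the sole IDR summit of the 24 that was unmatched in replicate 3. The relaxed list of both replicates held 12 peaks in the N window, and the replicate lists 11 and 10, of which 4 in each were shared.

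At Ser (FBgn0004197, 3R from 27172090 to 27194267, minus strand), the gene of a Notch ligand, no IDR peak was found. The relaxed list of both replicates held 3 peaks there, 1 of them at the promoter with a signal of 54.13, 1 in an exon with 64.22 and 1 downstream of the gene with 101.7, all below the 164.6 at which the IDR list ended. The promoter peak had 38.11 in replicate 3, and none in replicate 2 within 100 bp. Replicate 2 held 9 relaxed peaks and replicate 3 held 2, with 1 in common, the downstream one, at 67.71 and 37.80. The intronic summit that replicate 2 alone placed among its 5867 strongest, 7895 bp from the outermost TSS, had a signal of 68.86 and rank 5623, and replicate 3 held no peak within 100 bp of it.

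At fng (FBgn0011591, 3L from 20925891 to 20949512, minus strand), the gene of the glycosyltransferase that modifies Notch, the only IDR peak lay downstream of the gene, from 20923257 to 20923632. It had a signal of 201.9, with 114.6 in replicate 2 and 91.47 in replicate 3. The promoter of fng carried relaxed peaks only, the stronger at 79.15 in the list of both replicates, 57.89 in replicate 2 and none in replicate 3 within 100 bp. Replicate 3 had its own promoter summit 68 bp inside the gene, at 51.58. The replicates thus placed their weak promoter summits of fng apart. Replicate 2 also held 2 intronic peaks, at 41.30 and 26.42, and replicate 3 held none. Of the 10 relaxed peaks of replicate 2 and 6 of replicate 3 in the window, 2 in each were shared, both downstream of the gene.

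At neur (FBgn0002932, 3R from 9020348 to 9039471, minus strand), which encodes a ubiquitin ligase for Delta, 4 IDR peaks were found. The strongest, from 9031919 to 9032143, lay in a 15309 bp first intron, 7452 bp from the outermost TSS and 1712 bp from the second TSS. It ranked 960 at 583.1, and its signal was 233.3 in replicate 2 and 348.3 in replicate 3. With promoters widened to 2000 bp it counts as a promoter summit. At the outermost TSS, peaks with summits 607 bp inside the gene and 196 bp upstream had 299.6 and 221.9 in the IDR list, 99.88 and 71.56 in replicate 2, and 196.2 and 135.9 in replicate 3. The nearest TSSs of hyx, which differ, lay 104 bp from the first of these summits and 99 bp from the other, so these peaks cannot be assigned to either gene. The peak 227 bp from the second TSS had 187.1, with 82.33 in replicate 2 and 96.02 in replicate 3, and no other protein-coding TSS lay within 1000 bp of it. A stronger peak of replicate 3, at 136.9, overlapped it with a summit more than 100 bp away. In all, the neur window held 16 relaxed peaks in the list of both replicates, 10 in replicate 2 and 18 in replicate 3, with 5 in each shared.

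At mib1 (FBgn0263601, 3L from 16006552 to 16011812, minus strand), which encodes the other ligand-directed ubiquitin ligase, the promoter peak from 16011755 to 16011900 centred 22 bp upstream, and no other protein-coding gene starts within 1000 bp. Its signal was 279.8, with 118.9 in replicate 2 and 173.4 in replicate 3. A downstream peak had 228.2, with 77.93 and 93.90, and lay 153 bp and 304 bp from the TSSs of hzg and mRpS31. Replicate 3 also had a stronger peak, at 141.5, that overlapped it with a summit more than 100 bp away. Beyond the window, by 30 bp, was the summit of a stronger peak from 16001494 to 16001616, at 508.9 in the IDR list, 211.1 in replicate 2 and 303.1 in replicate 3. The relaxed lists held 10, 11 and 12 peaks in the mib1 window for both replicates together, replicate 2 and replicate 3, and 6 of the 11 had a summit of replicate 3 within 100 bp.

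At kuz (FBgn0259984, 2L from 13550139 to 13639411, plus strand), the gene of the protease that makes the first of the signal-dependent cuts, 3 IDR peaks lay within 2000 bp of the TSS and none in the rest of its 89.3 kb. The upstream summit at 1711 bp had a signal of 366.4 and 193.1 in both replicates. The summit at 895 bp upstream had 320.5, with 64.69 in replicate 2 and 257.9 in replicate 3, a log2 ratio 1.67 above the median of all matched peaks and the highest of the 21 matched members. The summit 46 bp inside kuz had 310.2, with no peak of replicate 2 and 228.2 in replicate 3. Signal of replicate 2 was thus highest at the most upstream summit, and that of replicate 3 nearer to the genes' starts. The gene B4 starts 84 bp from the middle summit and within 1000 bp of the other two. Along the introns of kuz the relaxed list of both replicates held 7 peaks, replicate 2 held 11 and replicate 3 held 5. The strongest of the 7 had a signal of 70.50 in the list of both replicates.

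At Psn (FBgn0284421, 3L from 20432468 to 20435156, plus strand), the gene of Presenilin, 1 IDR peak was found, from 20432349 to 20432724, with its summit 58 bp from a TSS and 176 bp from that of Las. It had a signal of 248.0 and 162.5 in replicate 3. Replicate 2 held no relaxed peak in the whole 12.7 kb window, although its list reached down to a signal of 21.37.

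At Su(H) (FBgn0004837, 2L from 15039488 to 15043334, plus strand), the gene of the DNA-binding protein of the pathway, the promoter peak from 15039363 to 15039565 was the strongest promoter peak of the 10 genes, with a signal of 407.0. It had 195.0 in replicate 2 and 211.7 in replicate 3, and was the only peak of its window in the relaxed list of both replicates. Its summit lay 39 bp from the TSS of Su(H) and 588 bp from that of CIAPIN1. The replicates differed little there: the log2 ratio of replicate 3 to replicate 2, less the median over all matched peaks, was -0.20.

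At H (FBgn0001169, 3R from 20621938 to 20628915, plus strand), the gene of the Su(H) corepressor Hairless, the promoter peak from 20621879 to 20622254 was the weakest of the 12 at 175.2 in the IDR list, 56.45 in replicate 2 and 116.6 in replicate 3. Its summit lay 129 bp inside the gene. The window held 6 relaxed peaks in the list of both replicates, 3 in replicate 2 and 6 in replicate 3, of which 2 in each were shared. Beyond the window, by 294 bp, lay the summit of a stronger IDR peak near the TSS of Pi3K92E, at 471.2, with 174.1 in replicate 2 and 269.7 in replicate 3. Of the 24 summit windows, only that of the H promoter peak held a Su(H)-type motif, GTGTGAA on the other strand. The match is shown here in capitals with 10 bases on either side.
H, chr3R:20622081-20622107, plus strand: gacctccgctTTCACACactattcggc
The share of all 5867 IDR windows with that motif was 1.99%.

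Smad-type motifs were found in few of these windows. GTCT, on either strand, was in 3 of 24 windows, or 12.5% (Wilson 95% interval 4.34 to 31.0), against 32.0% of all IDR windows. Of the 12 promoter windows 2 held it, against 32.6% of all promoter windows. None of the 9 intronic windows held it, against 31.7% of all intronic windows. By a limit of 3 counts, 0 of 9 allows a share of up to 33.3%, but the number of windows is small and the limit is rough. Whether the intronic share differs from that of all intronic windows was not tested. With 100 bp on either side of the summit the share over the 24 windows was 41.7% against 55.1%. The member introns also had a lower share of G and C, with a median of 30.7% against 33.7% over all intronic windows. The member promoters had a higher one, 44.5% against 40.6% over all promoter windows. The part of this share in the counts was not tested.

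The other motifs were rare in both. GCCGNC, a core shared by Mad and Brk sites, was in 2 windows, both at promoters, or 8.33% against 8.23% of all. GAGAG, a site of the Trl protein, was in 3 windows, or 12.5% against 11.3%. All 3 were intronic, 3 of 9 against 11.4% of all intronic windows, and 0 of 12 promoter windows held it against 11.2% of all promoter windows. GGTCACAC, a core promoter motif, was in 1, at the TSS of N (4.17% against 2.18%). Of 24 windows, 0 held the palindromic Smad site GTCTAGAC (0.119% of all), the GC-rich site GGCGCC (2.78%), the Su(H) site GTGGGAA (1.12%), the Zelda site CAGGTA (2.27%), the DREF site TATCGATA (3.36%) or the E-box CACGTG (1.11%), and by the limit of 3 counts 0 of 24 allows up to 12.5% (Wilson 95% upper bound 13.8%). GTCT is part of GTCTAGAC, and a match says only that the letters are present.

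At mam (FBgn0002643, 2R from 13991203 to 14060356, plus strand), which encodes the coactivator Mastermind, 6 IDR peaks were found, 5 of them intronic. The strongest, from 14024960 to 14025330, lay 33976 bp from the outermost TSS in an intron of 27528 bp (number 3 of 6). It ranked 488 at 851.2, and its signal was 444.1 in replicate 2 and 402.4 in replicate 3. Beside it, a peak with its summit at 33282 bp had 276.3, with 139.7 in replicate 2 and 134.1 in replicate 3. The pair was alike in both replicates.

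A second group of intronic summits of mam lay in an 18058 bp intron (number 2 of 6), at 5623, 7320 and 8132 bp from the outermost TSS. Their signals were 168.6, 310.7 and 169.7 in the IDR list. Replicate 2 had 88.53, 132.2 and 87.44 there, and replicate 3 had 77.29, 175.1 and 82.84. In both replicates the middle summit was the strongest of the group.

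The promoter peak of mam, 135 bp inside the gene and 631 bp from the TSS of RN-tre, had a signal of 324.3, with 83.47 in replicate 2 and 246.7 in replicate 3. The other TSSs of mam, 17996 and 40460 bp into the gene, had no IDR summit within 1000 bp. Replicate 3 had relaxed summits there, 8 bp from the first of them at 110.9 by position 17988 and at 111.4 by position 40520 along the gene, and replicate 2 had none within 100 bp of these. A replicate 2 peak of 54.83, with its summit at position 17829, overlapped the replicate 3 peak at 17988, so the first of these TSSs had a relaxed peak in both replicates. The mam window held the most relaxed peaks of the 10, 36 in the list of both replicates, 29 in replicate 2 and 41 in replicate 3, of which 14 were shared.

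Where a gene had both a promoter and an intronic IDR peak, the intronic one was the stronger. This held for N, mam and neur, 3 of 3, against 52.7% of the 565 protein-coding genes with both. The intronic summit of neur lies 1712 bp from its second TSS, so with promoters of 2000 bp neur has no intronic summit and leaves this count. The ratio of the strongest intronic to the strongest promoter signal was 2.31 at N, 2.62 at mam and 1.95 at neur in the IDR list. It was 2.41, 5.32 and 2.34 in replicate 2, and 2.25, 1.63 and 1.78 in replicate 3. The direction was the same in both replicates at the 3 genes, and the size differed most at mam.

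Agreement of the replicates at the 24 summits was about that of the whole list. Of the 24, 21 had a relaxed summit of both replicates within 100 bp, or 87.5% (Wilson 95% interval 69.0 to 95.7), against 90.9% of all IDR summits. The 3 others were the promoter summits of Psn and kuz, without replicate 2, and the intronic summit of N, without replicate 3. Among only the 5867 strongest peaks of each replicate, 12 of 24 were matched in both, or 50% (31.4 to 68.6), against 67.4% of all. For the 21 peaks the log2 ratio of signal, replicate 3 over replicate 2, was 0.27 at the median with SD 0.68, against 0.32 with SD 0.75 for the 5334 matched IDR peaks. Of the 21, 17 lay within 1 SD of the median of all, where 77.0% of all did.

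The replicate ratio had different medians at promoter and intronic summits of these genes, with overlapping ranges. Relative to the median of all matched peaks, the log2 ratio of replicate 3 to replicate 2 had a median of 0.62 (SD 0.64, n = 10) at member promoters and of -0.32 (SD 0.61, n = 8) at member introns. Over the whole list it was 0.03 (SD 0.77) at promoters and -0.03 (SD 0.71) at introns. The values ran from -0.20 to 1.67 at member promoters and from -0.52 to 1.30 at member introns. In replicate 2 the median promoter signal of the members where matched was 82.90, against 135.5 for all promoter peaks, while in replicate 3 it was 184.8 against 178.2. The intronic medians were 132.2 against 119.5 in replicate 2 and 154.6 against 159.1 in replicate 3. Each replicate is 1 library, and depth was not known, so its part in these ratios was not tested.

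**Figure D3:**
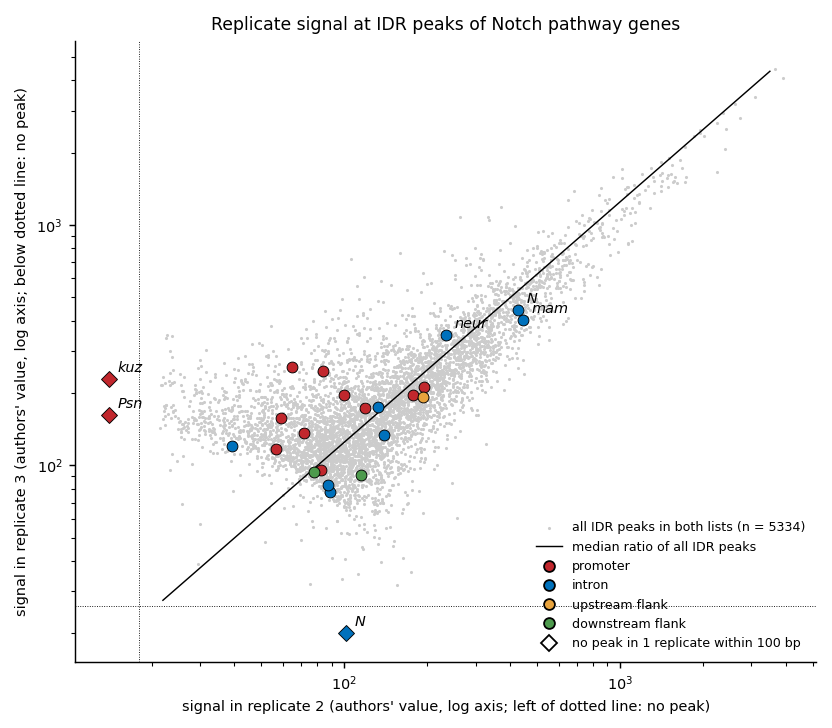
Signal in replicate 3 (vertical log axis) is plotted against signal in replicate 2 (horizontal log axis), both the authors' values, for all IDR peaks with a summit of both replicates within 100 bp (grey, n = 5334) and for the 24 peaks of the Notch pathway genes (coloured by place). The line is the median ratio of all peaks, and diamonds beyond the dotted lines are the 3 peaks that lack a partner in 1 replicate, at kuz, Psn and N.

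The relaxed lists hold many peaks of 1 replicate alone. Of the 102 relaxed peaks of replicate 2 in the windows, 40 had a replicate 3 summit within 100 bp, or 39.2%, the same as the 39.2% over its whole list. Of the 115 of replicate 3, 39 had one of replicate 2, or 33.9% (Wilson 95% interval 25.9 to 43.0) against 39.2%. By place, 12 of 18 promoter peaks of replicate 2 were shared and 12 of 22 of replicate 3, 17 of 46 intronic peaks of each, and 1 of 13 and 1 of 12 exonic peaks. In the upstream flanks 2 of 8 and 2 of 14 were shared, and in the downstream flanks 8 of 17 and 7 of 21. These counts are small, and the places were not tested against each other.

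**Figure D4:**
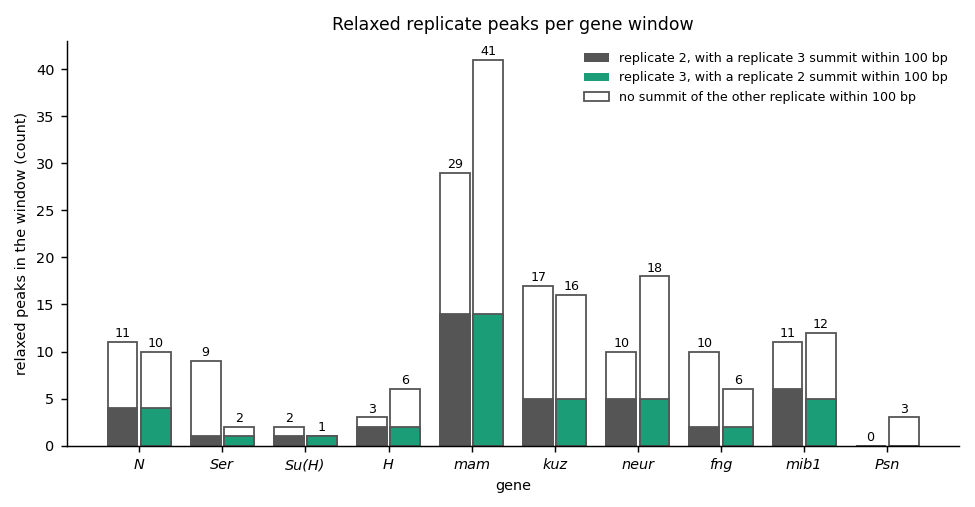
Bars give the number of relaxed peaks per gene window (vertical axis, count) in replicate 2 (left bar) and replicate 3 (right bar), and the filled part is those with a summit of the other replicate within 100 bp. The mam window holds the most, 29 and 41 with 14 shared, and Psn has 0 in replicate 2.

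Other genes of the pathway, from a list of 18, were mostly occupied at their promoters. Of the 18, 15 had a promoter summit in the IDR list, against 31.3% of all genes. The list was chosen with earlier results of these data known, so this count is a description and adds no support to that of the 10 genes. An intronic summit was found at 3 (bib, Nak and Nedd4), against 6.35% of all genes and 46.9% of genes of 20 kb or more. The lengths of the 18 genes were not compared, so these shares do not show an excess of intronic summits. The strongest promoter peaks were those of lgd, a regulator of endosomal Notch traffic, at 2085 (1095 in replicate 2 and 1000 in replicate 3), of the corepressor gene gro at 1621 (720.5 and 903.2), of rumi, which glucosylates Notch, at 930.3 (489.0 and 446.1), and of nct, a gamma-secretase subunit gene, at 660.2 (354.9 and 297.7). Each of the 4 exceeds every promoter peak of the 10 genes. The peaks of lgd, rumi and nct were within 1000 bp of a TSS of Reps, of Usp12-46 and CG7029, and of CG7006. The strongest promoter peaks of aph-1, dx, Su(dx), Nak and pen-2 were likewise shared with another gene. The promoter of the ligand gene Dl, named after its values were seen, had 183.1, with 28.64 in replicate 2 and 157.1 in replicate 3. No promoter summit was found at O-fut1, spdo or mib2.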

How the data were processed

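Peak lists in build dm6 were used. Per the deposited manifests, peaks of each replicate and of both together were called against 1 control file, and the IDR list was derived from these lists. The sources used here name no aligner, peak caller, version or IDR threshold. The signal per peak (column 7) is as deposited by the authors, and lists in dm3 were not used. Genes and TSSs came from Ensembl release 115 (BDGP6.54) and sequence from the Release 6 assembly, and all peaks lay within its arms. Positions count from 1. A replicate matched a summit if its strongest peak had a summit within 100 bp. Motifs were looked for on both strands within 50 bp of summits.

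All 10 genes were described, with their strongest promoter and intronic peaks. The genes, lists and motifs were chosen with earlier results of these data known. Of the 18 other pathway symbols, 3 (Dl, nct and lgd) were matched to current symbols through RefSeq synonyms. Wilson intervals are at 95%. Replicates came from separate biosamples per the labels. Matching and the promoter and flank classes were tested on simulated positions, placed by the same distance rule. The intronic and exonic classes were not tested in this way. Python 3.11.15, numpy 2.4.6, pandas 2.3.3, scipy 1.17.1 and matplotlib 3.10.9 were used. Alternatives were other promoter and match distances, flanks, TSS sets, windows and lists, and each replicate alone.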

Additional observations from a re-analysis of the deposited data

How the results depend on the processing

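Of 97 recomputed values 72 kept within the limits set. The limits were 1.5 times for counts, the SD of the medians of the 2 replicates for median signals and the Wilson interval for motif shares. Signal levels differ between lists, with whole-list medians of 31.95 in replicate 2, 52.56 in replicate 3 and 75.22 in the relaxed list of both. The limit for median signals thus includes that offset, as does the change of a median when another list is used. For the log2 ratio the limit was the SD over the 21 matched peaks. Some of the 72 could not move, such as the summit total under another promoter distance or absent motifs in narrower windows. The tally therefore does not measure robustness. With the weaker IDR peaks dropped, down to the median rank, 5 genes had a promoter summit. The windows then held 11 summits, 6 at promoters and 4 in introns, and 10 of the 11 were in both replicates. Their median signals were 322.4 at promoters and 717.2 in introns, the reverse of the order in the whole IDR list. A cut on signal raises both medians by construction. The motif counts for GTGTGAA, for GAGAG and for GGTCACAC were 0 there. In the whole relaxed list of both replicates there were 114 summits, 22 at promoters and 43 in introns, with medians of 181.2 and 73.02. Without a flank, which leaves out every summit upstream of the gene, 7 promoter summits were left, and 13 of 16 summits were in both replicates. With the strongest peaks of each replicate 12 were in both. With 1 replicate left out, the genes with a promoter summit numbered 5 to 8 (5 without replicate 3), and the medians were 92.56 to 167.9 at promoters and 116.8 to 175.1 in introns, on the scale of each list. With 25 and 100 bp on either side of the summit, GTCT was in 4.17% and 41.7% of windows, and with 25 bp GTGTGAA was in 0. The median log2 ratio of the 21 matched peaks, relative to all peaks, was -0.05 and, with other matching chosen after seeing the data, 0.08 to 0.09, so its sign has no meaning. No paired analysis was possible because there is only 1 group. Unknown depth limits what the absence of a peak shows.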
